A study of Mus musculus with 6 samples.

Results

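The genes described here are 10 genes that macrophages of embryonic tissue are known to express: C1qa, C1qb, C1qc, Laptm5, Mrc1, Csf1r, Cd68, Tyrobp, Fcer1g and Aif1. The list was given by gene name, and 9 of the 10 had a probe with exactly 1 gene symbol, out of 19057 genes measured. Cd68, which encodes a lysosomal glycoprotein of macrophages, had no such probe and is not analysed here. Where a gene had several probes, the probe with the highest mean over all arrays was used. For the genes of this list, the others are given beside it (Csf1r and Aif1). For further genes named below, only the main probe is given, although many have other probes.

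RNA of CD-1 mice, an outbred stock with no engineered allele or treatment named in the labels, was hybridised to 6 Illumina bead arrays of 1 colour at embryonic day 13.5. According to the sample titles, 3 libraries are molar tooth germ of the lower jaw and 3 are oral tissue without teeth. Each library pools tissue from several embryos, so differences between embryos are averaged, and equal library numbers mark a shared litter. The source name and tissue fields contradict the titles and give the tooth germ to the opposite 3 libraries. Libraries are called by their titles, "titled tooth germ" and "titled oral tissue", and the sign of every difference turns if the other fields are right.

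The genes that bear on the labels were Msx1, Shh and Myod1. Msx1, a homeobox gene of dental mesenchyme, read 10.78, 11.41 and 11.09 in titled oral tissue, against 12.67, 12.66 and 12.36 in titled tooth germ, on the deposited log2 scale. Shh, a ligand made by dental epithelium, read 7.30, 7.01 and 7.04 against 7.62, 7.90 and 8.18. Myod1, a regulator of skeletal muscle identity, read 9.13, 8.71 and 9.06 against 7.46, 7.52 and 7.50. The dental genes were thus higher, and the muscle gene lower, in all 3 libraries titled tooth germ.

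Macrophages of the embryo arise from yolk sac and fetal liver progenitors, enter tissues as these become vascularised, and depend on signals through the receptor encoded by Csf1r. They clear dying cells and debris with scavenger and complement-binding receptors, and they make the C1q subcomponents of complement themselves. Tyrobp and Fcer1g encode membrane adaptors that carry an immunoreceptor tyrosine-based activation motif (ITAM) and pass on signals from receptors that lack their own signalling tail. Laptm5 encodes a lysosomal membrane protein of blood cells, Mrc1 the mannose receptor of tissue-resident macrophages, and Aif1 the actin-bundling protein also known as IBA1.

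The comparison between the titled tissues asks where these genes are more highly expressed in the embryonic jaw. Of the 9 measured genes, 6 fell in titled tooth germ, 0 rose and 3 did not pass the test (limma, Benjamini-Hochberg adjusted p under 0.05 over all 19057 genes). The 6 were C1qa, C1qb, C1qc, Csf1r, Mrc1 and Laptm5, with folds of 1.19 to 1.53 in favour of titled oral tissue. Over all genes 5.81% were called, 3.42% lower and 2.39% higher, and among the 7266 genes brighter than the upper quartile of all values 5.57% fell. The median log2 difference (titled tooth germ minus titled oral tissue) was -0.31 over the 9 genes and 0.0026 over all genes. With litter as a block in the fit, the count stayed at 6 of 9 while 8.88% of all genes were called and 5.02% fell. All 3 titled tooth germ libraries lay below all 3 titled oral tissue libraries for 6 of the 9 genes (66.7%), an arrangement seen for 11.2% of all genes. The difference was below 0 in every litter for 8 of the 9, against 19.8% of all genes. The members and the later lists were chosen with earlier results of these data known. The shares set beside those of all genes are therefore a description and not an independent test. In bulk tissue, fewer macrophages and less of these RNAs per macrophage cannot be told apart.

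**Figure D1:**
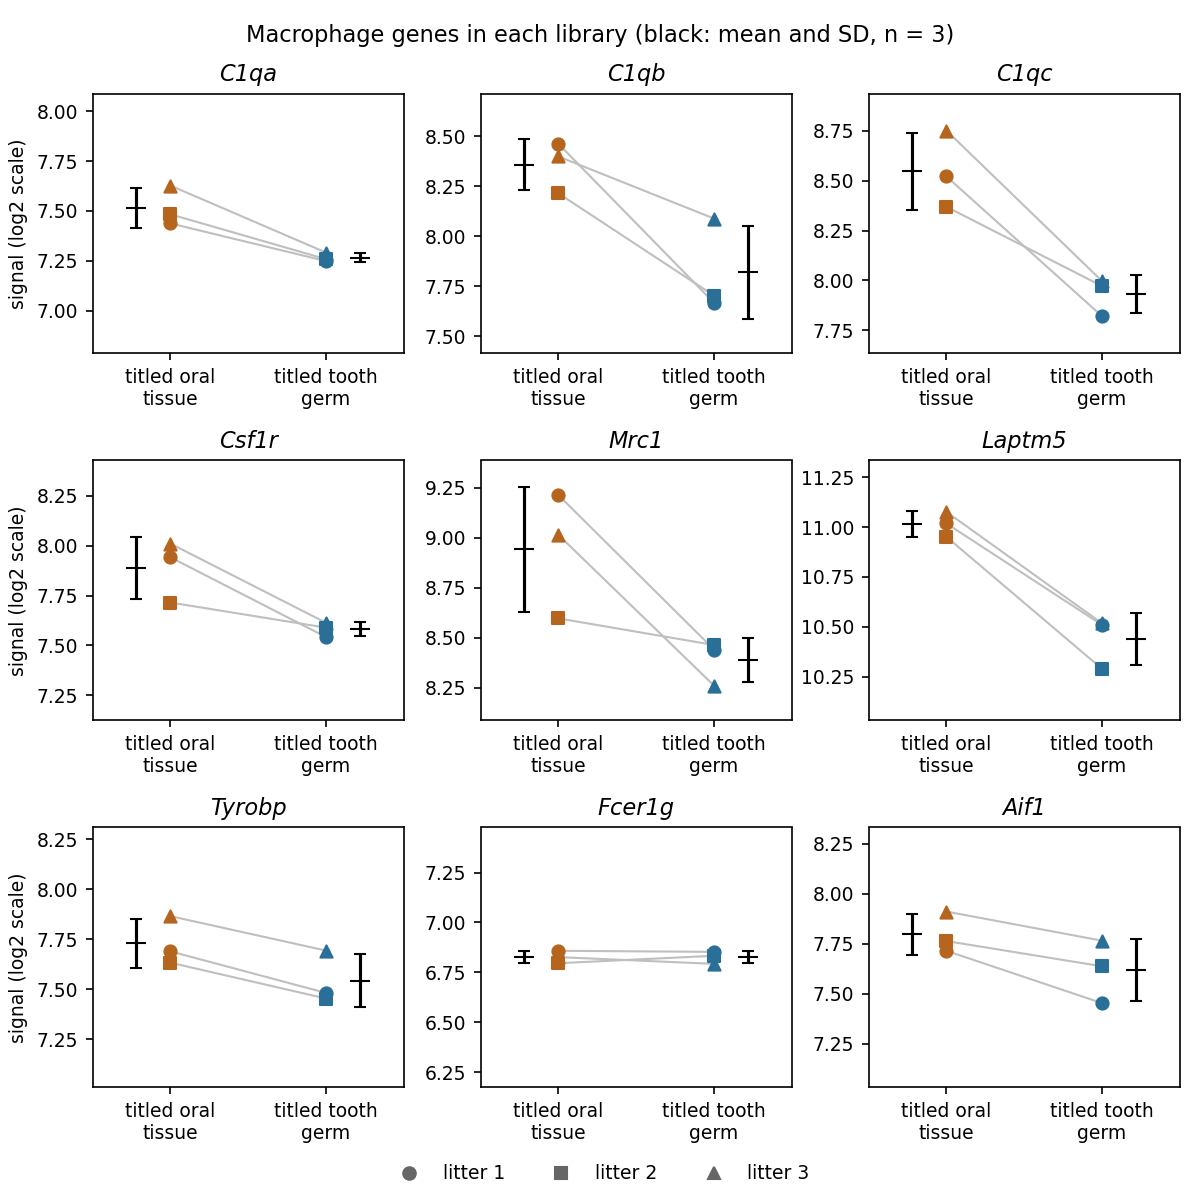
Signal of the 9 measured macrophage genes in each library on the deposited log2 scale, with grey lines joining the libraries of a litter and black bars giving the mean and SD (n = 3 per tissue). Each panel spans the same range of the log2 scale, and the groups do not overlap for C1qa, C1qb, C1qc, Csf1r, Mrc1 and Laptm5.

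C1qa, C1qb and C1qc encode the 3 chains of C1q, the recognition molecule that starts the classical complement pathway and tags dying cells for uptake. C1qc read 8.52, 8.37 and 8.75 in titled oral tissue, against 7.82, 7.97 and 7.997 in titled tooth germ. The highest titled tooth germ library thus lay below the lowest titled oral tissue library. The log2 difference was -0.62 (SE 0.098, limma adjusted p = 0.0024), or 1.53-fold. C1qb read 8.46, 8.21 and 8.40 against 7.67, 7.70 and 8.09, with titled tooth germ library 3 nearest to the oral tissue values. It fell by 0.54 on the log2 scale (SE 0.11, limma adjusted p = 0.014), and its differences in litters 1, 2 and 3 were -0.80, -0.51 and -0.31. C1qa read 7.44, 7.48 and 7.63 against 7.25, 7.26 and 7.29, with a narrow spread in titled tooth germ (SD 0.022). It fell by 0.25 (SE 0.060, limma adjusted p = 0.030). Whether the 3 chains differ from each other in their change was not tested, and either form of log scale used for such arrays can understate changes of dim probes.

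In the RefSeq gene table for GRCm38.p6 the 3 C1q genes stand side by side on chromosome 4 in the order C1qb, C1qc, C1qa. The protein-coding genes nearest to them on either side that had a value did not pass the test. Epha8, an Eph receptor gene next to C1qa, differed by 0.039 (limma adjusted p = 0.754). On the other side, Ephb2 had no value, and Lactbl1 differed by 0.026 (limma adjusted p = 0.652). Zbtb40, which follows Epha8, differed by -0.060 (limma adjusted p = 0.562).

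Csf1r encodes the receptor for the growth factors CSF1 and IL-34, on which most tissue macrophages depend. Its main probe read 7.94, 7.72 and 8.01 in titled oral tissue, against 7.54, 7.59 and 7.61 in titled tooth germ. Titled oral tissue library 2 lay closest to the titled tooth germ range. The log2 difference was -0.31 (SE 0.080, limma adjusted p = 0.046), and it was -0.40, -0.13 and -0.40 in litters 1, 2 and 3. A dimmer Csf1r probe read 7.03, 7.08 and 7.12 against 7.06, 6.99 and 7.03, close to the median of all values of 7.01. Its difference of -0.048 was not called (limma over all probes, adjusted p = 0.646).

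Mrc1 encodes a lectin receptor that takes up glycoproteins and marks resident macrophages, and it is also made by some endothelial cells. It read 9.21, 8.60 and 9.01 in titled oral tissue, against 8.44, 8.46 and 8.26 in titled tooth germ. The groups did not overlap, but titled oral tissue library 2 exceeded the highest titled tooth germ library by less than the SD of its own group of 0.315. The log2 difference was -0.55 (SE 0.13, limma adjusted p = 0.031), or 1.47-fold, and in litters 1, 2 and 3 it was -0.77, -0.13 and -0.75.

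Laptm5 encodes a lysosomal protein that tempers signalling from immune receptors. It read 11.02, 10.95 and 11.08 in titled oral tissue, against 10.51, 10.29 and 10.52 in titled tooth germ. The gap between the groups was wider than the spread inside either of them. The log2 difference was -0.58 (SE 0.087, limma adjusted p = 0.0017), or 1.49-fold, and it was -0.51, -0.66 and -0.56 in litters 1, 2 and 3.

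The ITAM adaptor genes and Aif1 did not pass the test. Tyrobp, which encodes the adaptor also called DAP12, read 7.69, 7.63 and 7.87 against 7.48, 7.45 and 7.69. Titled tooth germ library 3 lay at the level of titled oral tissue library 1, so the groups overlapped, while the difference within litters was -0.21, -0.18 and -0.17. The log2 difference was -0.19 (95% interval -0.37 to -0.0041, limma adjusted p = 0.278, or 0.070 in the fit blocked by litter). Aif1 read 7.72, 7.76 and 7.91 against 7.45, 7.64 and 7.77, again with overlapping groups and a lower value in titled tooth germ in each litter. Its log2 difference was -0.18 (95% interval -0.37 to 0.012, limma adjusted p = 0.329, or 0.106 in the fit blocked by litter). The 2 other Aif1 probes differed by -0.16 and 0.018 and were not called (limma over all probes, adjusted p = 0.219 and 0.880). Fcer1g, the adaptor of Fc receptors, read 6.86, 6.80 and 6.83 against 6.85, 6.83 and 6.79. Every Fcer1g value lay below the median of all values, so its probe gives little room to see a difference, and the measured difference was -6.3e-04 (95% interval -0.061 to 0.059).

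**Figure D2:**
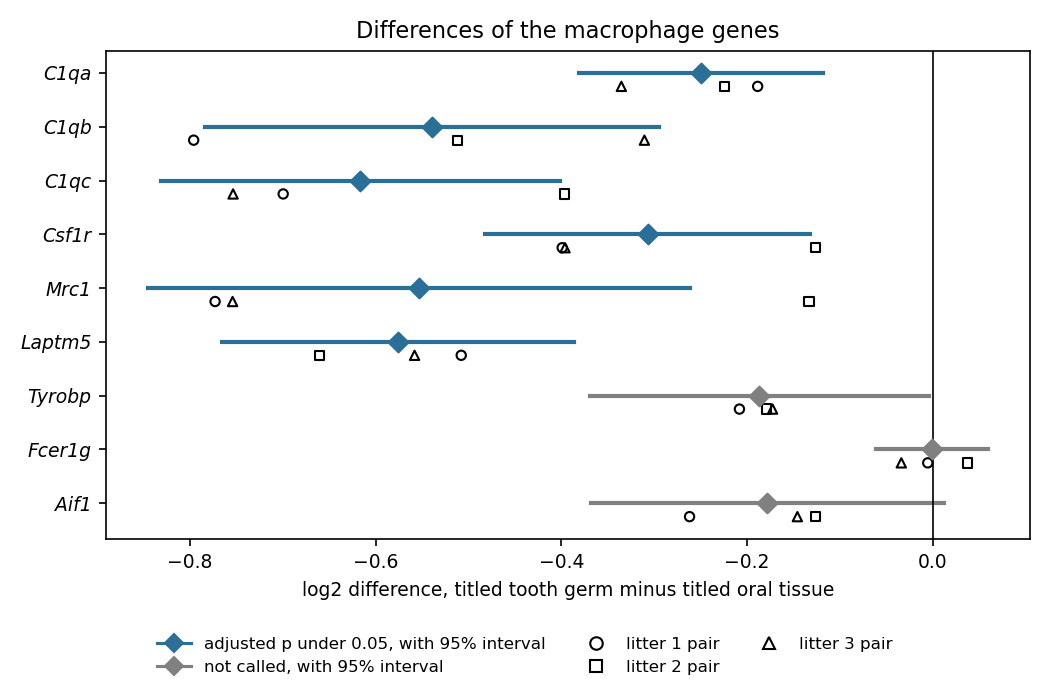
Log2 differences (titled tooth germ minus titled oral tissue) of the 9 measured macrophage genes, with filled diamonds for the fitted value, lines for the 95% interval and open symbols for the difference in each litter. The interval lies below 0 for the 6 called genes and Tyrobp, and the litter 2 symbol is nearest to 0 for C1qc, Csf1r, Mrc1 and Aif1.

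Titled oral tissue library 2 was the lowest of its group for 7 of the 9 genes, all but C1qa and Aif1. Over the 9 genes it deviated from the titled oral tissue mean by -0.12 on average, against 0.026 and 0.096 for libraries 1 and 3. The skeletal muscle markers deviated the same way in that library, by -0.39 against 0.31 and 0.086, and the neuron markers by -0.30 against 0.37 and -0.067. The 21 other macrophage and leukocyte markers deviated by -0.038 there, against -0.021 and 0.058. Several other lists deviated above 0 in that library. Among them were the dental mesenchyme markers at 0.21, against -0.25 and 0.043, and the erythroid markers at 0.11, against -0.19 and 0.085. The part of tissue composition in these differences was not tested.

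**Figure D3:**
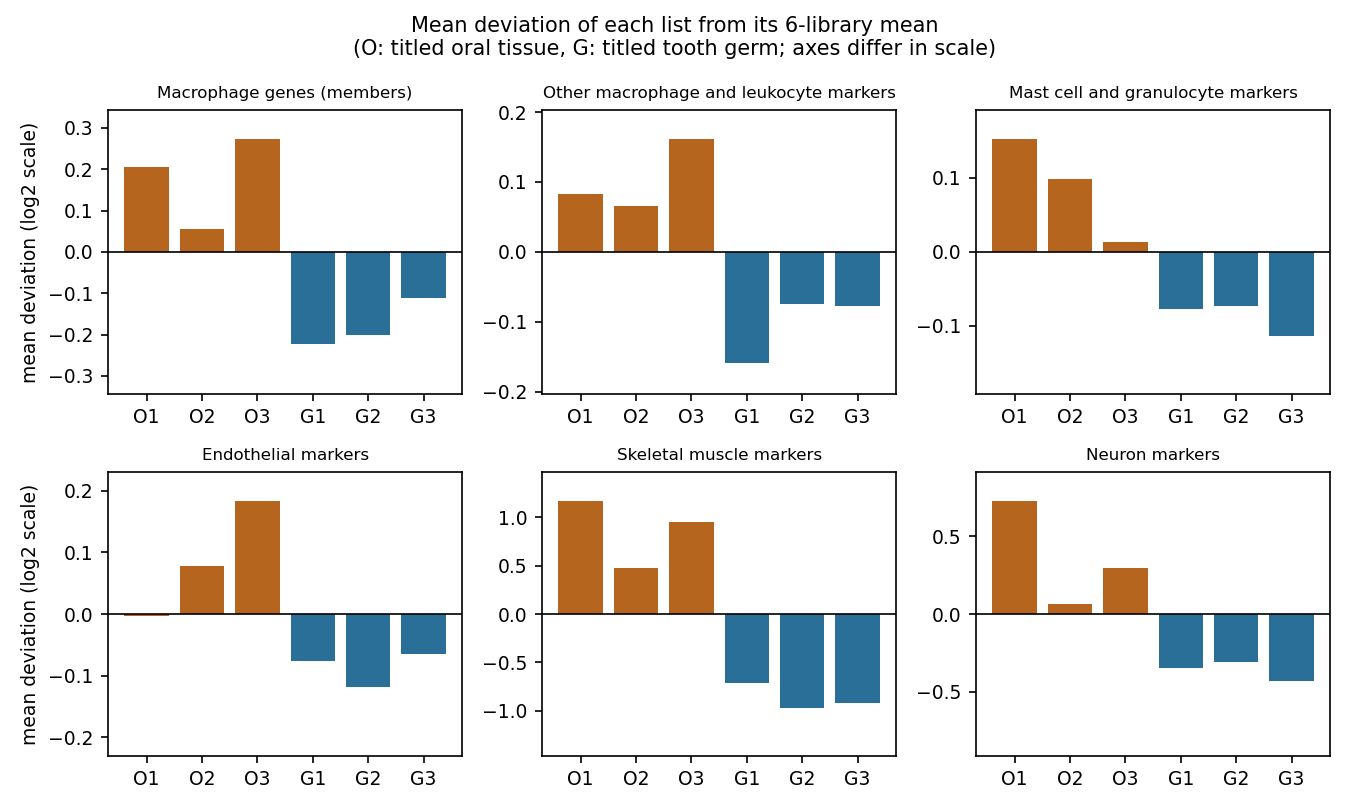
Mean deviation of the genes of 6 lists from their own mean over the 6 libraries, on the log2 scale, for titled oral tissue libraries 1 to 3 (O) and titled tooth germ libraries 1 to 3 (G). The macrophage genes lie at 0.21, 0.056 and 0.27 in titled oral tissue and at -0.22, -0.20 and -0.11 in titled tooth germ, and the panels differ in scale.

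Only some of the 6 calls held in every other setting. Laptm5 and C1qc were called under all 18 alternatives fitted at the threshold of 0.05, and also at 0.01 with all libraries, with adjusted p-values up to 0.026 and 0.046 over the 18 (limma). Among the 18, median centring and repeated quantile normalization returned the main fit, so no call could be lost there. C1qa lost its call in 7 of these 18, each of which leaves out a library or a litter. C1qb lost it in 5, Csf1r in 9 and Mrc1 in 10, with highest adjusted p-values of 0.199, 0.343 and 0.259 (limma). The count of called macrophage genes fell from 6 to 3 without titled oral tissue library 1, titled oral tissue library 3 or titled tooth germ library 3. It fell to 2 without titled tooth germ library 1 or 2. The count over all 19057 genes fell from 1107 to 793, 831, 863, 783 and 734 in these fits, in that order. Without both libraries of litter 1 the macrophage count was 2, without litter 2 it was 5 and without litter 3 it was 3. The counts over all genes were then 549, 768 and 668. Without titled oral tissue library 2 the macrophage count was 6 and that over all genes 1025. The difference of Mrc1 was then -0.73.

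Promoter sequences are shown for the 4 called genes that the RefSeq promoter table held, because these genes fell together. Each run gives the 250 bases before the annotated start in GRCm38.p6, read 5′ to 3′ on the gene's strand, and capitals mark the hexamer GAGGAA or its reverse complement TTCCTC, the core letters that the myeloid transcription factor PU.1 is known to bind.
C1qc, chr4:136892915-136893164, minus strand: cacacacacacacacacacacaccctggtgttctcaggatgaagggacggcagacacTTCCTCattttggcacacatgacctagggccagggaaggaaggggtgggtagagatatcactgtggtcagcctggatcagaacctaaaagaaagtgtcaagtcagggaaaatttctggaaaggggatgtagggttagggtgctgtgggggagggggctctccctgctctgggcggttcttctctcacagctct
C1qb, chr4:136886201-136886450, minus strand: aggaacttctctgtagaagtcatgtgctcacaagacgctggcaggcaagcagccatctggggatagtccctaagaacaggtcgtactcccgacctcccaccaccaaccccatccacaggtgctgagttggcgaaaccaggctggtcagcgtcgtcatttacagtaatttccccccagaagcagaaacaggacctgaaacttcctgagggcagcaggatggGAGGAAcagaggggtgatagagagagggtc
Laptm5, chr4:130913066-130913315, plus strand: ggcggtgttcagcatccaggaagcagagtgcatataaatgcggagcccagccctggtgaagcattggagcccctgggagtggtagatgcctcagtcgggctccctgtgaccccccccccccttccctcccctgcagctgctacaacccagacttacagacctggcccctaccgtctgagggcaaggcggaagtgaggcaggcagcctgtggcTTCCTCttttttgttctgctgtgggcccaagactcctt
Mrc1, chr2:14229164-14229413, plus strand: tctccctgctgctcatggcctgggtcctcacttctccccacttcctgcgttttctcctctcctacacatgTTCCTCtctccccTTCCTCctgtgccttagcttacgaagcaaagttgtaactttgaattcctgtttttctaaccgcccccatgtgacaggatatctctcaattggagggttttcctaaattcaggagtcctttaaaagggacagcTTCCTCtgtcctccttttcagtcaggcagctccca
The hexamer occurred in 6 of the 7 promoters found for the 10 genes and in 23.3% of the 32851 mouse promoter windows of the same length. In C1qc its leftmost base lies at position -193 from the start and in C1qb at -30. In Laptm5 it lies at -38, where it is part of the longer run TTCCTCTTT, the reverse complement of AAAGAGGAA, which 1.18% of all windows hold. Mrc1 has it at -180, -167 and -35. Aif1 and Cd68 also hold it, and the Fcer1g window does not, which says only that these letters are not in that window. C1qa, Tyrobp and Csf1r had no entry in the table. A match describes letters and not a bound site.

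Some further genes of macrophages and leukocytes fell in titled tooth germ. Of 21 measured, 7 fell, 0 rose and 14 did not pass (limma), and 8 fell in the fit blocked by litter. Over all genes 3.42% fell and 2.39% rose, and 5.02% fell in the blocked fit. These shares also stand beside the counts of every later list. The median difference of the 21 was -0.17, and 17 of them differed below 0. Lcp1, Itgam, Dock2 and Ptprc differed above 0, by 0.051, 0.011, 0.0081 and 0.0069, and were not called. Lyz1, a lysozyme gene, read 9.39, 9.56 and 9.66 in titled oral tissue, against 8.70, 8.97 and 9.01 in titled tooth germ, and it fell by 0.64 (SE 0.10, limma adjusted p = 0.0025). The near-identical Lyz2 fell by 0.47, and probes of both may share signal. F13a1, which encodes a clotting transglutaminase of resident macrophages, fell by 0.54 (limma adjusted p = 0.0063). Pf4, a chemokine gene of platelets and resident macrophages, fell by 0.50 (limma adjusted p = 0.0057). The remaining called genes were Adgre1, Mpeg1 and Cd53, at -0.43, -0.33 and -0.17. Adgre1, an adhesion receptor gene much used to mark mouse macrophages, read 7.87, 7.56 and 7.70 against 7.26, 7.37 and 7.21, with no overlap between the groups (limma adjusted p = 0.0066). Ptprc, the pan-leukocyte CD45 gene, read 6.82 to 6.98 against 6.85 to 6.94, below the median of all values, and differed by 0.0069 (limma adjusted p = 0.961).

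**Figure D4:**
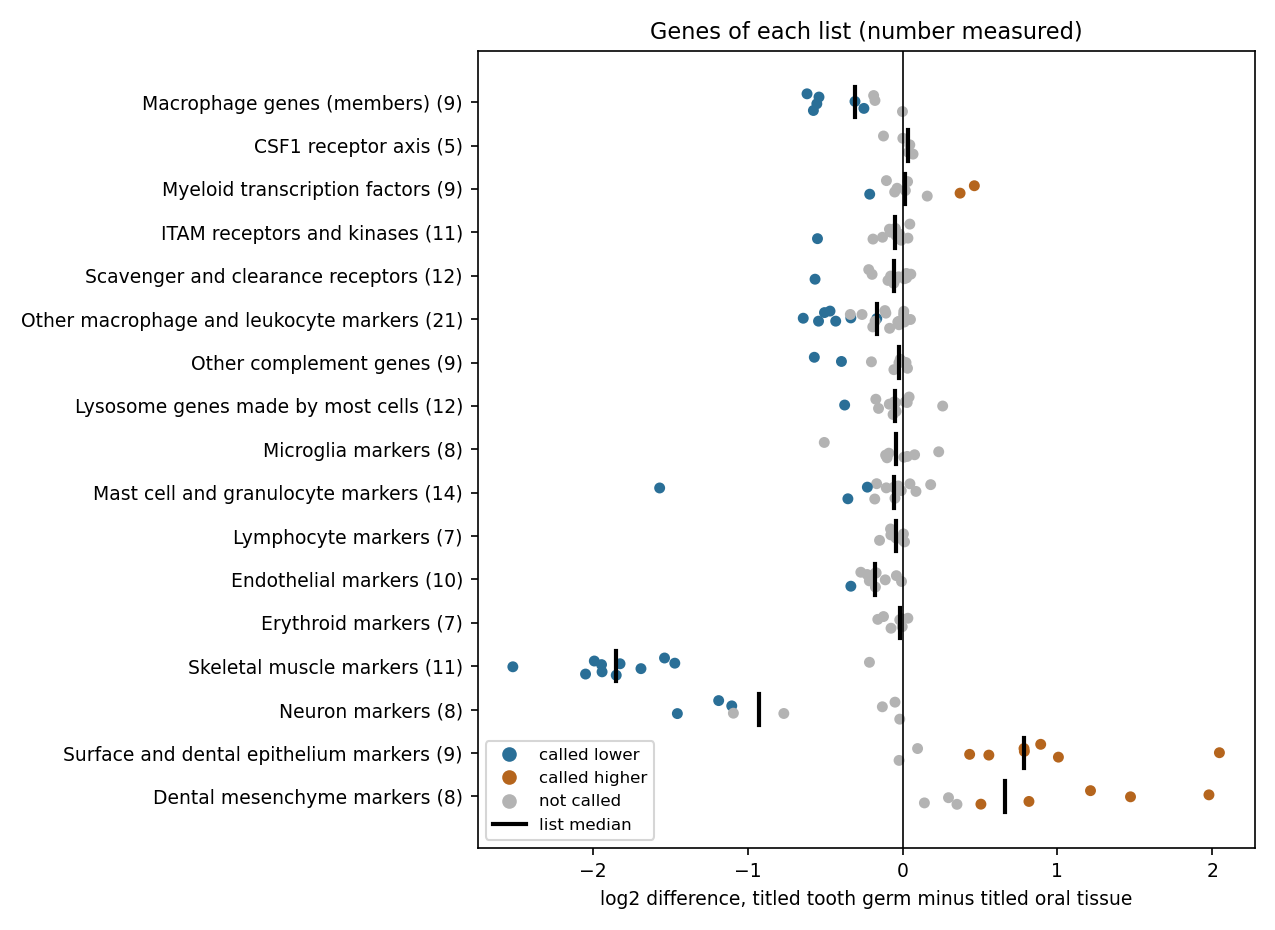
Log2 differences (titled tooth germ minus titled oral tissue) of the genes of each list, with the number measured in brackets, a point per gene coloured by its call and a black bar for the list median. The median of the macrophage genes is -0.31, that of the other macrophage and leukocyte markers -0.17, and those of the muscle and neuron markers -1.85 and -0.93.

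Receptors and signalling genes that work with the ITAM adaptors had 1 call, an Fc receptor gene, where 3.42% of all genes fell. Of 11 ITAM receptors and kinases 1 fell, 0 rose and 10 did not pass (median -0.046), and 5 of them had dim probes, with means under the array median. The gene that fell was Fcgr3, a low-affinity Fc receptor that needs the Fcer1g adaptor. It read 8.28, 8.11 and 8.32 in titled oral tissue, against 7.56, 7.72 and 7.77 in titled tooth germ, with a log2 difference of -0.55 (SE 0.082, limma adjusted p = 0.0015). Of 12 scavenger and clearance receptors 1 fell, 0 rose and 11 did not pass (median -0.053). That gene was Lyve1, a hyaluronan receptor of lymphatic endothelium and resident macrophages, at 7.95, 7.59 and 7.83 against 7.19, 7.35 and 7.12 (log2 difference -0.56, SE 0.090, limma adjusted p = 0.0025).

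Among 9 other complement genes 2 fell, 0 rose and 7 did not pass (median -0.023), where 3.42% of all genes fell. Serping1, which encodes the inhibitor of the C1 proteases and is made by many connective tissue cells, read 8.59, 8.65 and 9.20 against 8.12, 8.21 and 8.42, and fell by 0.57 (SE 0.14, limma adjusted p = 0.038). C2, a protease gene of the classical pathway, fell by 0.39 (SE 0.094, limma adjusted p = 0.029). Of 12 lysosome genes made by most cells 1 fell, 0 rose and 11 did not pass (median -0.050). It was Grn, the progranulin gene, at -0.37 (SE 0.093, limma adjusted p = 0.036).

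The ligands of the CSF1 receptor did not pass the test. They were read in a list with Csf2ra, Csf2rb and Csf3r, receptor genes for the related growth factors GM-CSF and G-CSF. Of these 5 genes 0 were called by limma (median 0.038), and 1 had an unadjusted p under 0.05. Il34, a ligand of the receptor, read 6.77, 6.81 and 6.80 against 6.87, 6.81 and 6.90 and differed by 0.068 (limma unadjusted p = 0.035, adjusted p = 0.237). Csf1, the other ligand, read 7.61, 7.48 and 7.40 against 7.47, 7.32 and 7.33, a difference of -0.12 (95% interval -0.27 to 0.028, limma adjusted p = 0.412). Il34 lay below the median of all values.

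Transcription factors of myeloid cells moved both ways. Of 9 measured, 2 rose, 1 fell and 6 did not pass (median 0.018). Runx1, a factor of blood formation that epithelia also make, rose by 0.46 (SE 0.062, limma adjusted p = 7.8e-04), from 7.31, 7.33 and 7.45 to 7.84, 7.80 and 7.84. Batf3, a factor of dendritic cells, rose by 0.37 (SE 0.082, limma adjusted p = 0.020). Ikzf1, a lymphoid and myeloid zinc-finger gene, fell by 0.21 (SE 0.046, limma adjusted p = 0.019). Spi1, which encodes PU.1, read 7.04, 7.11 and 7.06 against 7.10, 7.05 and 7.15, near the median of all values, and differed by 0.032 (95% interval -0.057 to 0.12).

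Markers of other cell types were read in the same fit. Of 14 mast cell and granulocyte markers 3 fell, 0 rose and 11 did not pass (median -0.052), and 4 fell in the fit blocked by litter. The mean level of the 14 ran from 7.37 to 7.51 in titled oral tissue and from 7.24 to 7.28 in titled tooth germ. Cpa3, a protease gene of mast cells, read 9.47, 9.46 and 8.94 in titled oral tissue, against 7.63, 7.75 and 7.79 in titled tooth germ, and differed by -1.57 (SE 0.13, limma adjusted p = 2.6e-05). The mast cell proteases Cma1 and Tpsb2 fell by 0.35 and 0.23 (limma adjusted p = 0.026 and 0.0040). The Tpsb2 mean of 6.96 lay below the median of all values of 7.01. Of the 14 markers 11 differed below 0, while Kit, Fcer1a and Ms4a2 differed by 0.18, 0.087 and 0.048. Kit, Fcer1a and Ms4a2 were not called (limma adjusted p = 0.272, 0.386 and 0.458). Of 8 microglia markers 0 were called by limma (median -0.040) and 3 had an unadjusted p under 0.05. Their means ran from 6.83 for Slc2a5 to 10.87 for Olfml3, and whether they mark microglia in these libraries was not tested. Sall3 and Gpr34 differed by -0.51 and -0.10 (limma adjusted p = 0.086 and 0.096), and Sall3 was called in the fit blocked by litter (adjusted p = 0.0066). Of 7 lymphocyte markers 0 were called by limma (median -0.043) and 1 had an unadjusted p under 0.05, Cd3g at -0.15 (limma adjusted p = 0.058, or 0.027 in the fit blocked by litter). Cd3e differed by -0.078 (limma adjusted p = 0.426). Gpr34 and Cd3g had means of 6.98 and 7.02, below and near the median of all values of 7.01, which limits what can be seen.

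Every called marker of vessels, muscle and nerve was lower in titled tooth germ, as the called macrophage genes were. Of 10 endothelial markers 1 fell, Tek at -0.33 (limma adjusted p = 0.027), and in the fit blocked by litter 2 did (median -0.18). The mean level of the 10 ran from 9.17 to 9.36 in titled oral tissue and from 9.06 to 9.11 in titled tooth germ. Of 11 skeletal muscle markers 10 fell (median -1.85), led by Actc1, Mylpf, Atp2a1 and Acta1 at -2.52, -2.05, -1.99 and -1.94, and their mean level ran from 10.47 to 11.17 against 9.02 to 9.29. Of 8 neuron markers 3 fell, Isl1, Nefm and Gap43 at -1.45, -1.19 and -1.10, and in the fit blocked by litter 5 did (median -0.93, mean level 7.84 to 8.51 against 7.35 to 7.47). Of 7 erythroid markers 0 were called by limma and 0 had an unadjusted p under 0.05 (median -0.018), with Slc4a1 and Epb42 at -0.16 and 0.034. Hba-a1 read 14.88, the highest of all values, in titled oral tissue libraries 2 and 3 and titled tooth germ library 3. The Epb42 mean of 6.86 lay below the median of all values, so both probes leave little room to see a difference. The part of these cell types in the differences of the macrophage genes was not tested.

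Called epithelial and dental mesenchyme markers were higher in titled tooth germ. Of 9 surface and dental epithelium markers 7 rose and 2 did not pass (median 0.78), led by Krt17, Trp63, Sp6 and Krt8 at 2.05, 1.01, 0.89 and 0.79. Of 8 dental mesenchyme markers 5 rose and 3 did not pass (median 0.66), led by Inhba, Msx1, Dlx2 and Dlx1 at 1.98, 1.47, 1.21 and 0.82.

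The genes whose pattern over the 6 libraries was most like the mean of the 9 macrophage genes are given as a description. The search was limited to genes brighter than the upper quartile of all values (7.84), which left out 14 of the 21 other macrophage and leukocyte markers. Among 7120 such named genes, the highest Pearson's r belonged to Unc13b (0.995), Tubb2b (0.994), Svep1 (0.993), Itgb1bp2 (0.989) and Wfikkn2 (0.989). The points share their libraries and the tissue contrast, and their number is small. Unc13b and Tubb2b encode a vesicle-release protein and a neuronal tubulin, Svep1 a matrix protein, and Itgb1bp2 a striated muscle protein. Tubb2b read 13.84, 13.57 and 13.87 in titled oral tissue, against 13.04, 13.15 and 13.29 in titled tooth germ. Itgb1bp2 read 8.79, 8.17 and 8.75 against 7.42, 7.44 and 7.61, with titled oral tissue library 2 again lowest of its group. All 5 were lower in titled tooth germ. This was fixed by the search, because the mean they were matched to is lower there, so it adds no support.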

How the data were processed

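Expression was measured on 6 Illumina bead arrays, 3 per titled tissue. The values are the table of log2-scale signals per probe that the authors deposited. They were made with lumi 2.8.0, per the submitters' processing notes. Its transformation and background correction are not given in the sources used here, so the scale may be log2 or a variance-stabilising form close to it. Values ran from 6.61 to 14.88, and the sorted columns differed by at most 8.3e-04, so the table was already quantile normalized. Detection p-values were not used here.

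Probes were named from the platform annotation. Of 45281 probes 34885 had 1 symbol, 18 several and 10378 none, and 34807 matched the RefSeq table of GRCm38.p6 by Entrez identifier, with 0 symbols changed. The titled tissues were tested in R 4.3.3 using limma 3.58.1 (lmFit, eBayes with a trend) over 19057 genes, with Benjamini-Hochberg adjustment and a threshold of 0.05. Errors are moderated standard errors. Errors, intervals and p-values come from the fit without litter, except where the blocked fit or another alternative is named. The test was checked on simulated data. Litter pairs the libraries per the labels, and deviations from group means correlated at 0.413, 0.233 and 0.266 in the same-numbered pairs. The other combinations gave -0.267 to -0.072. These values cover the 9528 genes with a mean above that of the median gene, and centring on group means ties them to each other. The number of arrays limits precision.

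The members, the lists and the rule for named genes were chosen with earlier results of these data known. The rule named all members, up to 4 called genes of each list by size (up to 2 of smallest p where none was called), Msx1, Shh and Myod1, the neighbours of the C1q genes and the 5 genes most like the members' mean. Adgre1, Mpeg1, Cd53, Ptprc and Spi1 were named as leukocyte markers. Kit, Fcer1a and Ms4a2 were named as the mast cell and granulocyte markers with a difference above 0. Lcp1, Itgam and Dock2 were named likewise from the other macrophage and leukocyte markers. Olfml3, Slc2a5 and Hba-a1 were named for their signal level. Alternatives were litter as a block, 3 normalizations, removal of dim genes, the mean of all probes, other variance shrinkage, array weights, a stricter threshold, and leaving out each library or litter. Of the 9 measured members 8 passed the filter on dim genes.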

Additional observations from a re-analysis of the deposited data

How the results depend on the processing

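The 6 called macrophage genes kept the sign of their difference in all 18 alternatives fitted at the threshold of 0.05. Several of these could not change it. The litter block, removal of dim genes and other variance shrinkage leave the estimated difference as it was. Median centring and repeated quantile normalization returned the main fit, since the table was already quantile normalized. With litter as a replicate block 1693 genes were called in place of 1107, and the same 6 members. At an adjusted p under 0.01, 601 genes and 2 members (C1qc and Laptm5) were called, and without a variance trend 3 members. Leaving out a library or a litter gave 549 to 1025 genes and 2 to 6 members. These fits have fewer libraries, and the cause of the other losses was not tested. The block changed no other call of a member. Fcer1g, at -6.3e-04, changed sign with cyclic loess (2.7e-04) and array weights (0.010), and ranged from -0.020 to 0.016 when a library or litter was left out. Median centring and repeated quantile normalization gave 6 members each, as did cyclic loess, removal of dim genes and array weights. The mean of all probes gave 4 and robust shrinkage 5. Signals below the median of all values, as for Fcer1g and Ptprc, or near it, as for Spi1, limit what can be seen, since the background level was not used here.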
